A study of Mus musculus with 4 samples.

Results

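The genes described here are 10 members of the calcium cycling machinery of the sarcoplasmic reticulum, Ryr2, Trdn, Asph, Jph2, Casq2, Hrc, Atp2a2, Pln, Slc8a1 and Camk2d, of the 32285 mouse genes counted in each library. They were chosen by their place in the pathway and not by their values, although earlier results of these data were known. For each gene the unique molecular identifiers (UMIs, 1 for each captured RNA molecule) were summed over all barcodes of a library and divided by the library's total, as counts for every 1000000 UMIs (CPM). The libraries were made from left ventricle of male C57BL/6J mice, a wildtype inbred strain, and there was 1 droplet library for each of 4 conditions. Young sham and aged sham mice were 3 to 5 and 24 to 26 months old, and young I/R and aged I/R mice of the same ages had 45 min of ischemia by ligation of a coronary artery and 24 h of reperfusion (I/R). The labels call the sham tissue healthy and the molecule nuclear RNA, where the methods describe sham operations and suspensions of single cells, and the number of mice in a library is not given in the sources used here. Where 4 values follow a gene without labels, they stand in the order young sham, young I/R, aged sham, aged I/R. With 1 library per condition no test could be run, and the condition cannot be told apart from the library, the animal and its preparation. All 95% intervals cover counting error only and are exact Poisson or exact conditional intervals, except those of the log2 change of a pair ratio and of a difference between ages, which use a normal approximation on the log scale.

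In a heart muscle cell, calcium that enters through voltage-gated channels opens the ryanodine receptor Ryr2, and calcium leaves the sarcoplasmic reticulum and starts the contraction. Triadin (Trdn) and junctin (a product of Asph) tie the receptor to the luminal calcium store of calsequestrin (Casq2), the histidine-rich protein Hrc also binds calcium in the lumen, and junctophilin 2 (Jph2) holds the reticulum close to the surface membrane. Relaxation follows when the pump SERCA2 (Atp2a2), which unphosphorylated phospholamban (Pln) inhibits, returns calcium to the store and the sodium-calcium exchanger (Slc8a1) carries the rest out of the cell, and the kinase encoded by Camk2d phosphorylates both Ryr2 and phospholamban.

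RefSeq promoter windows (build GRCm38.p6, 250 bases before and 50 after the start) were at hand for 7 of the 10 genes and not for Atp2a2, Trdn and Asph. The windows of Ryr2 (chr13:12106896-12107195, minus strand), Camk2d (chr3:126596701-126597000, plus strand), Casq2 (chr3:102086165-102086464, plus strand) and Pln (chr10:53337436-53337735, plus strand) are shown, because Ryr2 and Camk2d were more abundant in barcodes rich in the nuclear RNA Malat1 in every library and Casq2 and Pln were not, as described further on. Capitals mark the letters CANNTG of an E-box and GATAA, bound by GATA factors, as well as the TATA box, spelled TATAAA, and the MEF2 motif, all searched on both strands.
Ryr2: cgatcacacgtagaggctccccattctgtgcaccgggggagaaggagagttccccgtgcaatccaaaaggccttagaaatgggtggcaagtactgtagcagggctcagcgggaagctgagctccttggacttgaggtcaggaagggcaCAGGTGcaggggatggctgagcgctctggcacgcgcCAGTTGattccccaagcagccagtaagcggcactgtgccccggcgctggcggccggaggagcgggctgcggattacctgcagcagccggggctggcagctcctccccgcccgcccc
Camk2d: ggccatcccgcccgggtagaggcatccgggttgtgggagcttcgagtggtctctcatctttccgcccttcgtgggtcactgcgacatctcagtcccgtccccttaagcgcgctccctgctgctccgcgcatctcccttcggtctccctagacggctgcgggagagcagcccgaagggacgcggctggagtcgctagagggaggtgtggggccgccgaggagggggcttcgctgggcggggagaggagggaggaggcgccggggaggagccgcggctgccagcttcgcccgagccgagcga
Casq2: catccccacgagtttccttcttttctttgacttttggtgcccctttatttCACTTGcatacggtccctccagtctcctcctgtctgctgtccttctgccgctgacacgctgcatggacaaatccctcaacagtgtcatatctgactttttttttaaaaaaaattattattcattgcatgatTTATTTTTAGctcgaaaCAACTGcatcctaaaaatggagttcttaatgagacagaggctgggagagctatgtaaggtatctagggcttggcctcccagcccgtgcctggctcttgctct
Pln: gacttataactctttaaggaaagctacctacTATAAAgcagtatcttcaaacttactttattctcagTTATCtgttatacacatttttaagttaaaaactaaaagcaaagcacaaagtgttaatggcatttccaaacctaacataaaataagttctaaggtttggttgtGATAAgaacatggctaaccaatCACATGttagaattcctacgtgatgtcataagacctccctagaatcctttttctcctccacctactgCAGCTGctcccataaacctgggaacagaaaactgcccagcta
The Ryr2 window held 2 E-boxes and 18 CpG dinucleotides, and the Camk2d window held none of the motifs and 31 CpG. The Pln window held 1 CpG, 2 E-boxes, 2 GATA motifs and 1 TATA motif, and the Casq2 window held 6 CpG, 2 E-boxes and 1 MEF2 motif. Over all 32851 windows of that length the median was 7 CpG (quartiles 3 and 20), and 72.3% held an E-box, 25.4% GATA, 13.6% TATA and 3.19% MEF2. Of the windows not shown, that of Slc8a1 had 9 CpG, 1 E-box and 2 GATA motifs, and Slc8a1 too was more abundant in Malat1-rich barcodes in every library. Hrc had 3 CpG, 1 E-box and 1 GATA motif, and the 2 overlapping windows of Jph2 had 7 and 8 CpG and 1 E-box each. The windows shown were picked after the Malat1 values had been seen. These matches describe letters and not binding.

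The libraries held between 25836175 and 66767829 UMIs over 91124 to 102883 barcodes, and between 7.44% and 7.92% of the barcodes of a library were also found in another. The median barcode held 244 UMIs in young and 391 in aged sham, and 374 and 675 after I/R. At least 200 genes were detected in 26140 of 92200 barcodes for young sham and 68121 of 100342 for aged sham. After I/R these were 56835 of 102883 barcodes (young) and 89990 of 91124 (aged). The groupings of barcodes described further on rest on these low and unequal UMI counts. All 18 cardiomyocyte markers were detected in every library and summed to between 69717 and 78033 CPM. Endothelial markers summed to 1450 to 1867 CPM, fibroblast markers to 1071 to 1850 CPM and neutrophil markers to 14.8 CPM in young and 24.9 in aged sham, and 191 and 162 after I/R. Malat1 took 7.34%, 2.22%, 2.88% and 4.33% of the UMIs. Together the 10 calcium cycling genes took 1.33% of the UMIs in young and 1.35% in aged sham, and 1.16% and 1.27% after I/R. In library sums, fewer cells of a type and less RNA per cell cannot be told apart. UMIs were not divided by gene length, so a level is compared between libraries and not between genes.

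Of the release complex, Ryr2, the channel itself, differed most between libraries, with 2568 CPM (young) and 1180.4 (aged) in sham, and 1494 and 2688 in I/R. It was thus high in young sham and aged I/R and low in the other two, and no neighbouring intervals overlapped. After I/R it differed from sham by −0.78 on the log2 scale in young mice (95% interval −0.80 to −0.77) and 1.19 in aged mice (1.17 to 1.20). Ryr2 in the aged sham library was at 0.460-fold of young sham, while in the aged I/R library it was 1.80-fold higher than in young I/R. Ttn, a gene outside the members, had the same order of libraries, with 31744, 18615, 18041 and 34439 CPM. The pattern was therefore not particular to Ryr2, and its cause was not tested. Ttn is named here after its values had been seen.

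Triadin, which anchors calsequestrin to the receptor, was counted at 344 CPM in young sham against 325 after I/R, and 335 in aged sham against 434 after I/R. Aged I/R was highest, and among the other libraries the intervals of young sham and aged sham, and of aged sham and young I/R, overlapped. Asph was counted at 262 CPM in young and 202 in aged sham, and 126 and 185 after I/R. The gene encodes aspartyl β-hydroxylase as well as junctin and the counts do not separate its products. Its log2 ratio of −1.06 in young I/R over young sham (−1.11 to −1.01) was the lowest of the 10 genes, against −0.12 in aged mice. Jph2 was counted at 205 CPM (young) and 259.9 (aged) in sham, and 189 and 195 in I/R. Aged sham was highest for this tether, and the intervals of young I/R and aged I/R overlapped.

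Of the luminal proteins, Casq2 was counted at 306 CPM in young sham against 299.8 after I/R, and 413 in aged sham against 306 after I/R. Aged sham was 1.35-fold higher than young sham for this main calcium buffer, and the intervals of young sham, young I/R and aged I/R all overlapped. Hrc was counted at 643 CPM in young and 569 in aged sham, and 623 and 621 after I/R. It varied least, with its highest library 1.13-fold over its lowest.

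Of the uptake genes, Atp2a2 was counted at 5272 CPM (young) and 6938 (aged) in sham, and 6057 and 4897 in I/R. Its order was the reverse of that of Ryr2. The difference of I/R from sham was 0.20 on the log2 scale in young mice (0.19 to 0.21) and −0.50 in aged mice (−0.51 to −0.50). Phospholamban, its inhibitor, did not follow the pump, with 3092 CPM in young sham against 2037 after I/R, and 2982 in aged sham against 2636 after I/R. Pln was lowest in young I/R, with a log2 ratio over young sham of −0.60 (−0.62 to −0.59), and differed by −0.05 between the sham libraries.

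The exchanger Slc8a1, which removes calcium across the surface membrane, was counted at 347 CPM in young and 386 in aged sham, and 258 and 470.2 after I/R. It was lowest in young I/R and highest in aged I/R, 1.82-fold apart. Camk2d was counted at 271 CPM (young) and 207 (aged) in sham, and 152 and 221 in I/R. This kinase had a log2 ratio of −0.84 for I/R against sham in young mice (−0.89 to −0.79) and 0.09 in aged mice (0.06 to 0.13).

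**Figure D1:**
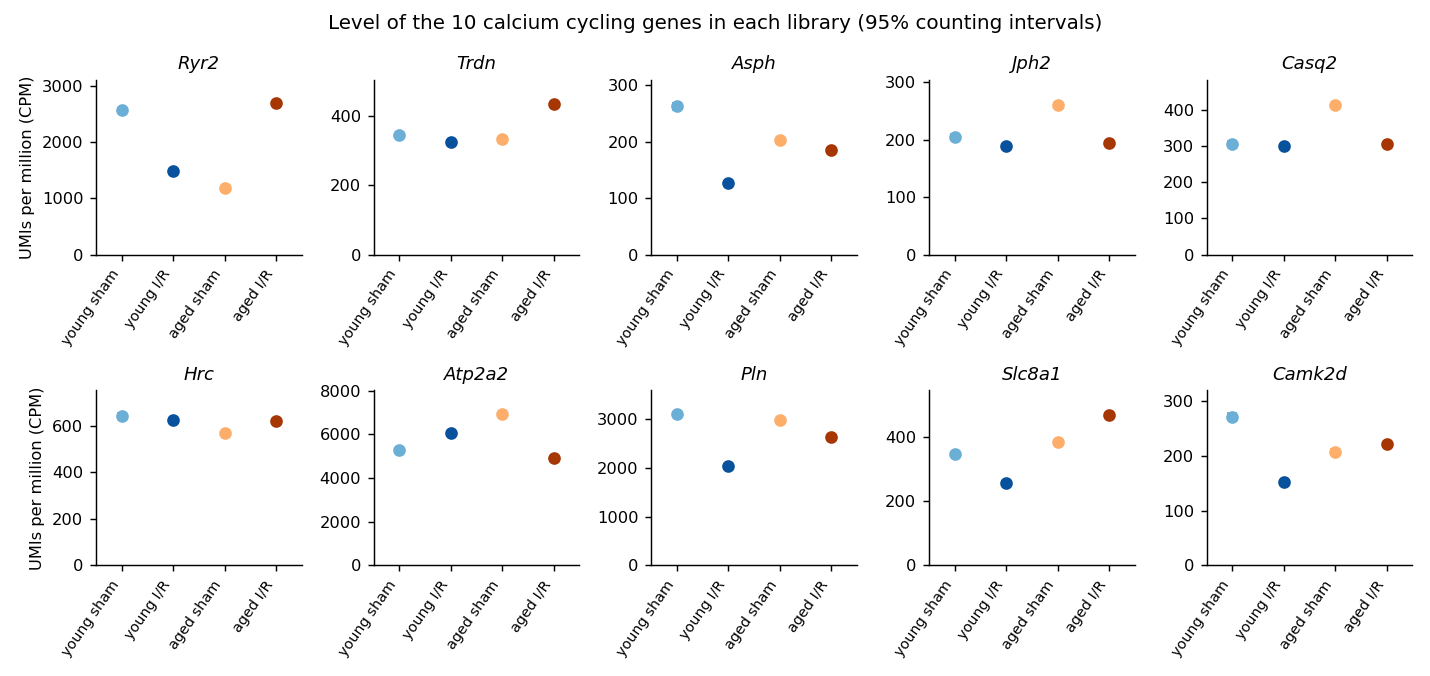
Level of each gene in CPM (vertical axis from 0) in the 4 libraries (horizontal axis), 1 point per library with 95% counting intervals, most of them smaller than the point. Ryr2 is high in young sham (2568) and aged I/R (2688), Atp2a2 is highest in aged sham (6938), and Hrc stays between 569 and 643.

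The number of members past a fixed fold of 1.5 was read against the share among all genes that had 100 UMIs or more in the pair of libraries. In young I/R over young sham 4 members (Ryr2, Asph, Pln and Camk2d) were past 1.5-fold lower and 0 higher, where 41.9% of 12465 genes were lower and 5.35% higher. In aged I/R over aged sham 1 member (Ryr2) was past 1.5-fold higher and 0 lower, against 14.4% higher and 7.43% lower of 13722 genes. In aged over young sham 1 member (Ryr2) was lower and 0 higher, against 16.9% lower and 6.12% higher of 12901 genes, and in aged over young I/R 2 members (Ryr2 and Slc8a1) were higher and 0 lower, against 39.3% higher and 3.29% lower of 13434 genes. The counts of members were thus near or under the shares of all genes. The median log2 ratio of the members was −0.27, −0.015, −0.046 and 0.39 in the 4 comparisons, and that of all genes −0.44, 0.09, −0.14 and 0.43. The 4 comparisons share libraries and are not independent.

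Since the median of all genes was itself away from 0, the ratios were also scaled by the median gene-wise ratio over 11881 genes, which moved every log2 ratio by 0.43 in young I/R over young sham, by −0.09 in aged I/R over aged sham, by 0.14 in aged over young sham and by −0.38 in aged over young I/R. With this scaling Casq2, Trdn, Slc8a1, Jph2 and Hrc had the other sign in young I/R over young sham, and 1 member was past 1.5-fold higher (Atp2a2, log2 ratio 0.63) and 1 lower (Asph, −0.62). The share of all genes past 1.5-fold was not counted with this scaling. In the aged comparison of I/R with sham no sign changed, and Ryr2 stood at 1.10 and Atp2a2 at −0.59. Pln and Trdn changed sign between the sham libraries, and Pln, Casq2 and Jph2 between the I/R libraries.

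**Figure D2:**
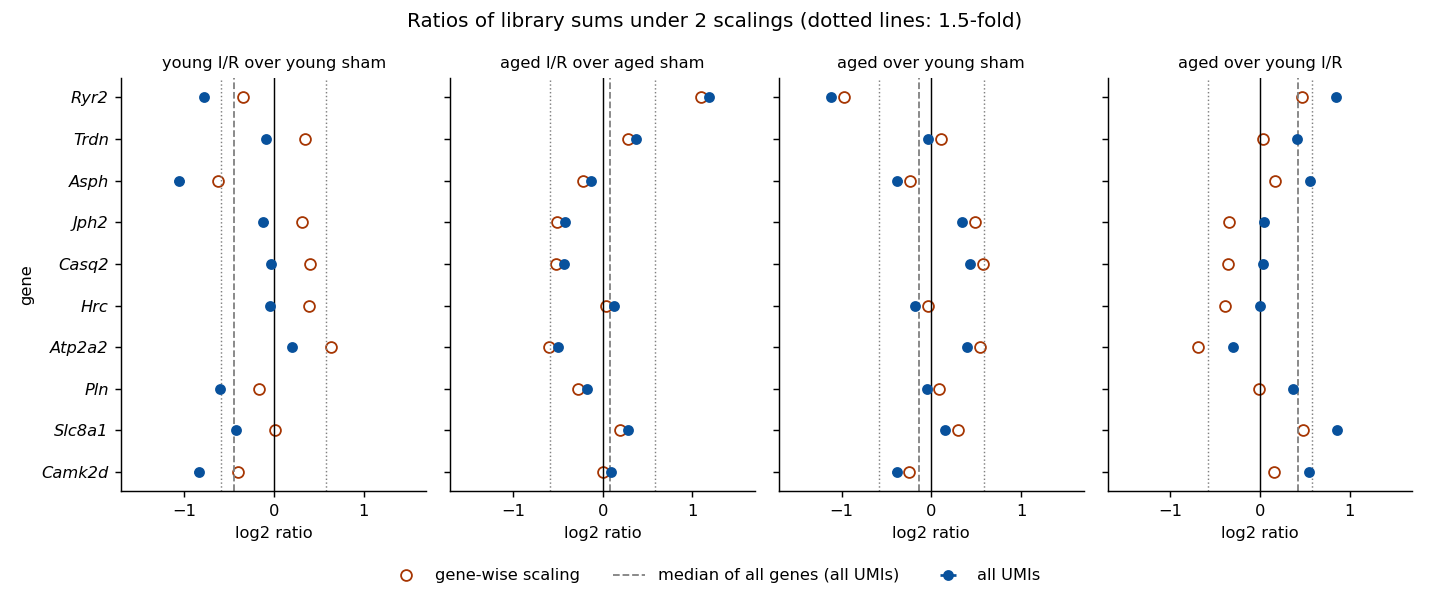
Log2 ratio (horizontal axis) of each gene (vertical axis) in the 4 comparisons, with filled points for scaling by all UMIs and open circles for gene-wise scaling. The dashed line is the median of all genes, which lies at −0.44, 0.09, −0.14 and 0.43, and in the aged I/R panel Ryr2 lies to the right of the 1.5-fold line under both scalings.

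Ratios between 2 members within a library do not depend on how libraries are scaled. There were 1.71 UMIs of Atp2a2 for each UMI of Pln in young sham against 2.97 after I/R, and 2.33 in aged sham against 1.86 after I/R. The pump-to-inhibitor ratio was therefore higher in I/R than in sham in young mice (log2 change 0.80, 95% interval 0.79 to 0.82) and lower in aged mice (−0.32, −0.34 to −0.31). Markers of atrial muscle, where phospholamban is known to be scarcer and sarcolipin (Sln) takes its place, were also counted: the 5 genes of that list summed to 471 CPM in young sham against 1311 after I/R, and 948 in aged sham against 473 after I/R. None was at 0 in any library, and Nppa, which ventricular muscle also makes under stress, gave most of the sum (335, 1055, 821 and 379 CPM). Without Nppa the other 4 genes (Myl4, Myl7, Sln and Stard10) summed to 136, 256, 127 and 94.3 CPM. Young I/R was highest in the Atp2a2 to Pln ratio and in both sums. Young sham was lowest in the ratio but not in the sum of 4, and in the sum of 5 genes it was nearly equal to aged I/R (471 and 473 CPM). The part of atrial tissue in the Atp2a2 to Pln ratio was not tested.

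The release channel and the pump were most unlike, with 0.487 UMIs of Ryr2 for each of Atp2a2 in young and 0.170 in aged sham, and 0.247 and 0.549 after I/R. This ratio was lower after I/R in young mice by 0.98 on the log2 scale, and 1.69 higher after I/R in aged mice. Against calsequestrin, Ryr2 gave 8.38, 4.98, 2.86 and 8.78 UMIs per UMI in the same order. The balance of the 2 calcium removal routes, Atp2a2 over Slc8a1, was 15.2, 23.4, 17.98 and 10.4. Hrc over Casq2 was 2.10, 2.08, 1.38 and 2.03, so that only aged sham stood apart for the luminal pair, and the 3 other intervals lay between 1.99 and 2.16. Jph2 and Casq2 had the most similar levels across the 4 libraries of all 45 pairs of members, with a distance of 0.07 in centred log2 CPM, and Ryr2 and Atp2a2 the least similar, with 1.39.

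**Figure D3:**
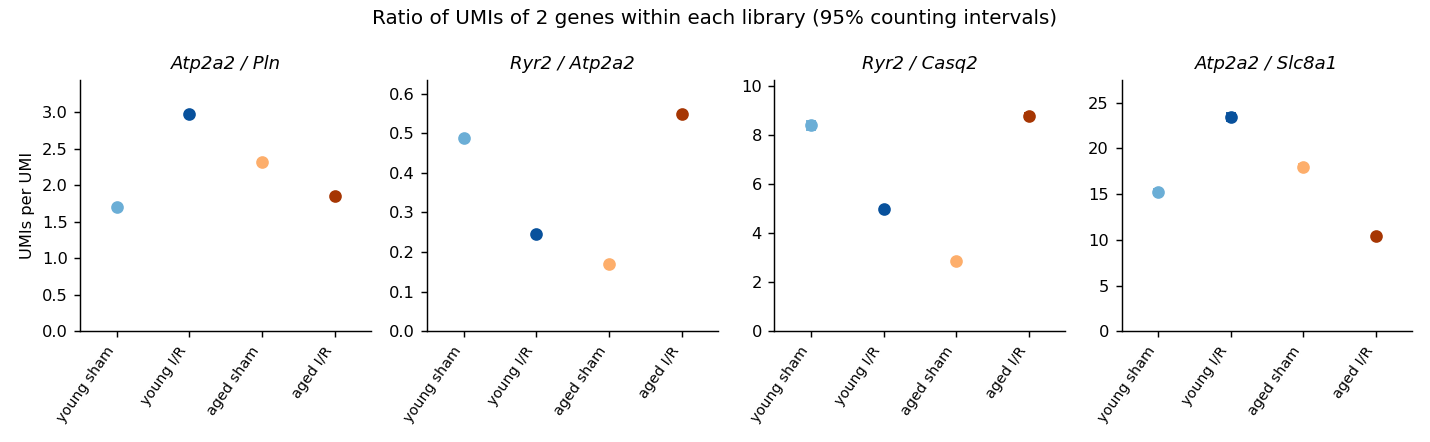
UMIs of the first gene for each UMI of the second (vertical axis from 0) within each of the 4 libraries (horizontal axis), with 95% counting intervals. Atp2a2 over Pln is highest in young I/R (2.97), and Ryr2 over Atp2a2 and Ryr2 over Casq2 are highest in aged I/R (0.549 and 8.78) and lowest in aged sham (0.170 and 2.86).

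The members differ in the length of their genes, which the choice did not use. On the GENCODE M21 annotation (GRCm38), Ryr2 spans 554 kb on the minus strand of chromosome 13 (chr13:11553102-12106945), Trdn 396 kb (chr10:33080554-33476709, plus strand), Slc8a1 365 kb (chr17:81373105-81738377, minus strand), Camk2d 250.025 kb (chr3:126596302-126846326, plus strand) and Asph 221 kb (chr4:9448069-9669344, minus strand). Jph2 spans 61.8 kb (chr2:163336242-163397993, minus strand), Casq2 60.1 kb (chr3:102086415-102146514, plus strand), Atp2a2 48.7 kb (chr5:122453513-122502225, minus strand), Pln 8.32 kb (chr10:53337667-53345987, plus strand) and Hrc 3.69 kb (chr7:45335290-45338974, plus strand). The 5 members of at least 200 kb had a median log2 ratio of −0.78 in young I/R over young sham, 0.28 in aged I/R over aged sham, −0.38 in aged over young sham and 0.56 in aged over young I/R. The 5 shorter members had medians of −0.046, −0.42, 0.34 and 0.030 in the same comparisons. All genes were ordered alike by span, since in young I/R over young sham the median was −0.21 for 3070 genes under 10 kb and −0.89 for 631 genes of at least 200 kb, and in aged I/R over aged sham it was −0.07 and 0.26. Against the quartiles of genes of their span, which leave as many genes outside as inside, 5 members lay above, 0 below and 5 within in young I/R over young sham, and 1 above (Ryr2, at 1.19), 4 below and 5 within in aged I/R over aged sham. In aged over young sham 5 lay above, 1 below (Ryr2, at −1.12) and 4 within, and in aged over young I/R 0 above, 4 below and 6 within. Atp2a2, Casq2 and Jph2 lay above in young I/R over young sham and between the sham libraries, and below in the other 2 comparisons. Summed exon length gave the same order over all genes in the 4 comparisons, and the part of gene length in the members' differences was not tested.

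**Figure D4:**
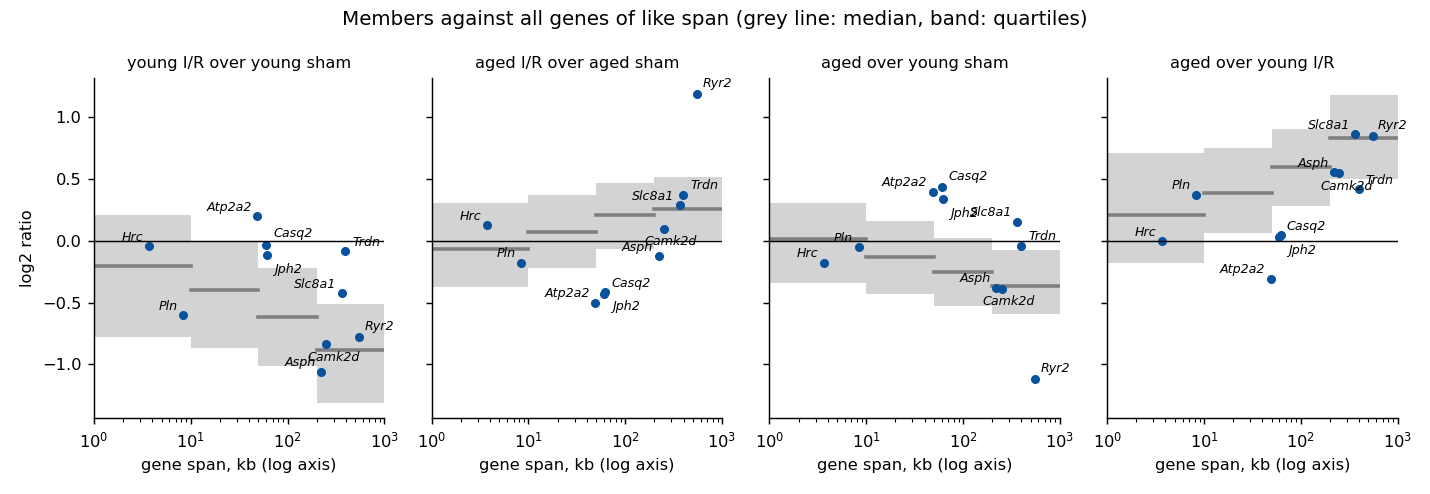
Log2 ratio (vertical axis) of each member against its gene span in kb (horizontal log axis) in the 4 comparisons, with the median (grey line) and quartiles (band) of all genes in 4 ranges of span. In young I/R over young sham the medians go from −0.21 under 10 kb to −0.89 from 200 kb on, and 5, 5, 6 and 4 of the 10 members lie outside the bands in the panels of I/R over sham in young and in aged mice and of aged over young in sham and in I/R.

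Within each library the members fell into 2 sets by the share of Malat1, a long noncoding RNA kept in the nucleus, in a barcode. Ryr2 was between 1.97-fold and 2.32-fold higher in barcodes with at least 10% Malat1 than in those with under 2%, Camk2d between 2.43-fold and 4.13-fold, Slc8a1 between 1.58-fold and 2.33-fold and Asph between 1.67-fold and 2.33-fold, with Malat1 itself left out of the base. For these 4 genes the counting interval lay above 1 in all 4 libraries. Atp2a2 was at 0.744 to 0.868 of its level in the Malat1-poor barcodes, Pln at 0.866 to 0.982, Casq2 at 0.798 to 0.962, Trdn at 0.753 to 0.912, Jph2 at 0.721 to 0.941 and Hrc at 0.663 to 0.944. Their interval lay below 1 in all 4 libraries for Atp2a2 only, in 3 for Pln, Trdn, Jph2 and Hrc, and in 2 for Casq2. Trdn, although 396 kb long, was thus among the genes that were not higher in Malat1-rich barcodes. These ranges of Malat1 were set after the data had been seen, and barcodes of 1 library are not replicates.

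**Figure D5:**
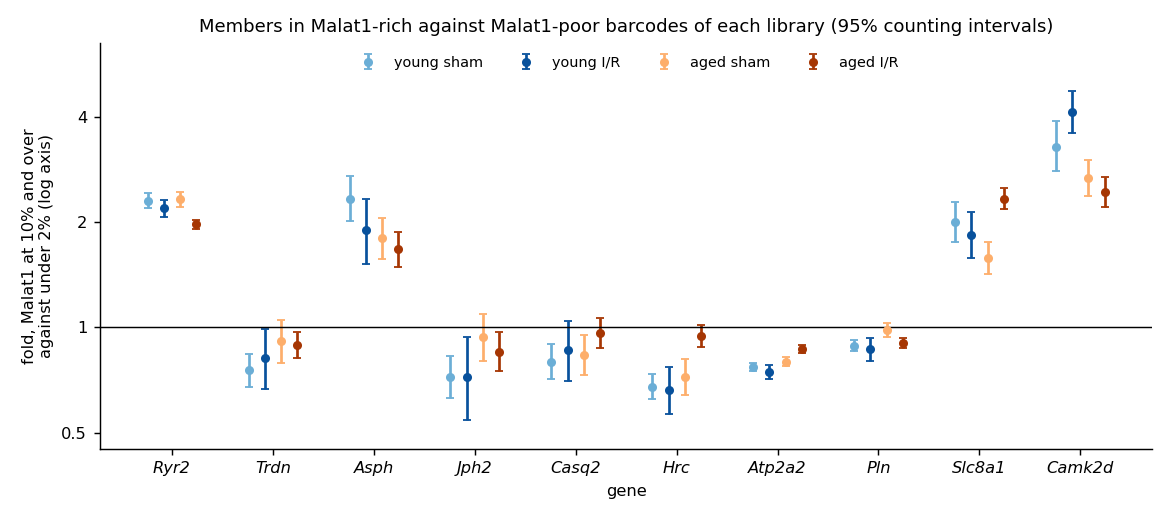
Fold of each gene in barcodes with at least 10% Malat1 over barcodes with under 2% (vertical log axis), 1 point per library with 95% counting intervals. Ryr2, Asph, Slc8a1 and Camk2d lie above 1 in all 4 libraries, Camk2d up to 4.13, and the points of the other 6 genes lie below 1. Of these 6, only Atp2a2 has intervals below 1 in all 4 libraries.

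The libraries differed in how many barcodes were rich in Malat1: 14.6% of barcodes had at least 10% in young sham, and 0.666% in young I/R, and this share was 1.01% for aged sham and 1.76% for aged I/R. Members were compared again among barcodes with 2 to 10% Malat1, with Malat1 also left out of the base, and these were 80.9%, 39.5%, 53.5% and 90.8% of the barcodes. Ryr2 then had a log2 ratio of −0.53 in young I/R over young sham and 1.12 in aged I/R over aged sham, and it was −0.87 in aged over young sham and 0.78 in aged over young I/R. Camk2d moved most, from −0.84 to −0.52 in young I/R over young sham and from −0.39 to −0.03 in aged over young sham. Past 1.5-fold lower in young I/R over young sham there were then 2 members, Pln at −0.74 and Asph at −0.83. With Malat1 kept in the base these barcodes also gave 2 (Pln at −0.70, Asph at −0.79), while all barcodes with Malat1 left out of the base gave 4, with Pln at −0.68. The share of all genes past 1.5-fold was not counted for these barcodes or bases, so these counts are not set against it. Over the 40 ratios the sign was kept in 38, with Camk2d in aged I/R over aged sham (−0.021) and Hrc in aged over young I/R (0.077) as the exceptions.

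Per 1000 UMIs of the 18 cardiomyocyte markers, which hold none of the members, Ryr2 gave 36.8 UMIs (young) and 15.1 (aged) in sham, and 20.5 and 34.4 in I/R, and Atp2a2 gave 75.6, 83.1, 89.0 and 62.8. The order of the libraries was that of the CPM for Atp2a2, while for Ryr2 young sham came above aged I/R and by CPM below it. Within a library, barcodes with at least 10% of their UMIs from the marker list had more Hrc (1.28-fold to 1.72-fold over the 4 libraries), Jph2 (1.31-fold to 1.76-fold), Casq2 (1.27-fold to 1.51-fold), Atp2a2 (1.21-fold to 1.44-fold), Pln (1.17-fold to 1.39-fold) and Trdn (1.06-fold to 1.45-fold) than barcodes with under 5%, with the markers left out of the base. Ryr2 (0.701 to 0.893), Camk2d (0.574 to 0.826) and Slc8a1 (0.713 to 0.978) had lower values there in all 4 libraries, and Asph lay between 0.683 and 1.05. Not all of these differences exceeded counting error. The intervals of marker-rich and marker-poor barcodes overlapped for Trdn and Asph in every library but young sham. They also overlapped for Slc8a1 in young I/R and aged sham, and for Camk2d in aged sham. By their values, the 6 genes higher in marker-rich barcodes were the 6 that were not higher in Malat1-rich ones. The groupings are not independent, since markers took 6.38% of the other UMIs in the Malat1-rich and 9.12% in the Malat1-poor barcodes of young sham. The marker share itself varied little between barcodes, with a median of 6.92% to 7.83% and an SD of 1.36 to 2.15 percentage points, where counting alone would give 1.06 to 1.64.

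The calcium cycling genes were not confined to any set of barcodes. Barcodes with at least 2 UMIs of a list were compared with those that had under 2 UMIs of each of the endothelial, fibroblast, macrophage and mural lists. The latter can still hold a UMI of these lists, so they are not free of other cell types. Per cardiomyocyte marker UMI, Ryr2 in barcodes with endothelial markers was at 0.935 to 1.03 of its level in the latter, and Atp2a2 at 0.960 to 0.994. With fibroblast markers Ryr2 was at 0.938 to 1.04 and Atp2a2 at 0.961 to 0.994. The widest range was that of Asph in barcodes with macrophage markers (0.892 to 1.53), where the highest value rests on 52 UMIs. The variance of UMIs per barcode over that of counting alone, at equal composition, was 1.07 to 1.23 for Ryr2, 1.01 to 1.06 for Atp2a2 and 1.001 to 1.02 for Hrc, against 11.3 to 16.98 for Malat1 and 12.6 to 22.1 for the hemoglobin gene Hbb-bs. Member values per cell type were not drawn from these barcodes.

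Several gene models lie within members or overlap them, and they were counted apart. Gm47644, on the strand opposite to Pln and sharing 1644 exon bases with it, was counted at 99.0 CPM in young sham against 12.4 after I/R, and 23.5 in aged sham against 53.1 after I/R. Cep85l, also opposite to Pln, shared 141 exon bases and had 26.6 to 50.3 CPM. 4632404M16Rik in an intron of Casq2 had 51.8, 9.12, 15.1 and 24.6 CPM, and D830005E20Rik, antisense within Trdn, 174, 37.9, 79.7 and 156 CPM. These 3 noncoding models (Gm47644, 4632404M16Rik and D830005E20Rik) were highest in young sham and lowest in young I/R, as was Pln, while Casq2 was highest in aged sham and Trdn in aged I/R. They were also higher in Malat1-rich barcodes, Gm47644 by 2.43-fold to 5.46-fold and D830005E20Rik by 3.94-fold to 5.13-fold. Clvs1, opposite to Asph and sharing 2302 exon bases, had 0.580 to 0.929 CPM. Opposite to Slc8a1, AC122399.1 shared 296 exon bases and had only 1 to 6 UMIs in a library. Gm11096, also opposite to Slc8a1, shared 8 exon bases and had 0 UMIs in every library. Ryr2, Atp2a2, Casq2, Trdn, Jph2, Camk2d and Hrc shared exon bases with no other gene of the files. The use of strand in the counting is not given in the sources used here. Whether reads of Pln, Slc8a1 or Asph were kept apart from those of opposite-strand neighbours where exons overlap was therefore not checked.

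Among paralogs, the counted family was nearly all the cardiac member for the ryanodine receptors, SERCA pumps, calsequestrins and exchangers, and less so for Jph2 and Camk2d. Ryr2 made up 99.6% to 99.9% of the UMIs of the ryanodine receptors, Atp2a2 99.7% to 99.9% of those of the SERCA pumps, Casq2 99.1% to 99.8% of calsequestrins and Slc8a1 99.7% to 99.8% of the exchangers. Jph2 had 82.3% of the UMIs of its family in aged I/R and 93.3% in aged sham, because Jph1 was at 29.0 CPM in young and 18.7 in aged sham, and 23.7 and 41.9 after I/R. Camk2d had 72.5% to 77.6% of the UMIs of its family, and Camk2a was at 46.0, 12.6, 30.8 and 21.4 CPM. Sln, the atrial counterpart of Pln, was at 21.3, 45.2, 18.9 and 11.2 CPM.

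The pathway around the members was described with 10 lists of 80 other calcium handling genes. With at least 100 UMIs over the pair, 6 of 70 were past 1.5-fold higher and 23 lower in young I/R over young sham, 9 of 74 higher and 10 lower in aged I/R over aged sham, 7 of 70 higher and 11 lower in aged over young sham, and 26 of 73 higher and 5 lower in aged over young I/R. These counts stand beside the shares of all genes given for the same comparisons above (41.9% lower in young I/R over young sham and 39.3% higher in aged over young I/R). The median log2 ratios of these 70, 74, 70 and 73 genes were −0.19, 0.06, 0.02 and 0.29. All 3 inositol trisphosphate receptors, a second kind of calcium release channel, were past 1.5-fold lower in young I/R over young sham, and Itpr2 was at 73.9 CPM (young) and 46.2 (aged) in sham, and 31.2 and 73.5 in I/R. Itpr1 and Itpr2 span 338 kb and 394 kb, but Itpr3, also lower (log2 ratio −0.72), spans 64.9 kb. The part of gene length was not tested. Cacna1c, the pore of the L-type channel that triggers Ryr2, was at 337, 150, 256 and 273 CPM. Fkbp1b, a small protein bound to the receptor, had only 16 to 53 UMIs in a library. Itpr2, Cacna1c and Fkbp1b are named after their values had been seen. By the rule for naming, the extremes were Pde4d, a phosphodiesterase (−2.22), and Rcan1, a calcineurin inhibitor (2.20), in young I/R over young sham, Jph1 (1.16) and Ppp1r3a, a glycogen-targeting phosphatase subunit (1.07), in aged I/R over aged sham, Atp2a3 (1.31) and Rcan1 (1.01) in aged over young sham, and Sln (−2.01) and the kinase Camk1d (1.56) in aged over young I/R. None of the 7 luminal buffering genes other than the members was past 1.5-fold in young I/R over young sham or between the sham libraries, and 1 was past it, lower, in each of the other comparisons.

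Of 7716 genes with at least 2000 UMIs, those whose levels across the 4 libraries lay nearest to a member were found by the distance of centred log2 CPM over the 4 libraries. Nearest to Ryr2 were Phactr4 (distance 0.12), Aqr (0.15), Spen, Susd6 and Zfp1, and Phactr4 was at 50.9 CPM in young sham against 26.8 after I/R, and 23.2 in aged sham against 49.96 after I/R. Nearest to Atp2a2 were Rnf11 (0.020), BC031181, Spr, Atp5l (1004, 1150, 1313 and 904 CPM), a subunit of mitochondrial ATP synthase, and Mlf2. Nearest to Pln were Alpk3 (0.021), a kinase-like protein of heart muscle with 176, 114, 167 and 147 CPM, Nudt3, Mbnl1, Pgpep1 and Lims1. With 4 libraries the distance describes the levels only, and no shared control follows from it.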

How the data were processed

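The 4 libraries were prepared on the 10x Chromium platform and then sequenced. The deposited values are whole UMI counts per gene and barcode, which the authors made with Cell Ranger 6.0.2 on mm10 per the submitters' processing notes. Use of strand and of intronic reads is not given in the sources used here. Groups came from the sample labels. UMI counts were summed over all barcodes of a library and scaled to CPM with Python 3.11.15, numpy 2.4.6, scipy 1.17.1 and pandas 2.3.3, with exact 95% Poisson intervals and exact conditional intervals for ratios. With 1 library per condition no test was run, and called means past 1.5-fold with at least 100 UMIs over the pair. No doublet caller was run and no barcode was removed as a doublet. The calculations were tested on simulated data. Gene positions came from GENCODE M21, where 32235 of 32285 identifiers were found, and promoters from RefSeq GRCm38.p6.

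The members and lists were chosen with earlier results of these data known. Named were all 10 members, their paralogs and overlapping genes, per comparison the 2 pathway genes of largest log2 ratio with at least 500 UMIs, and the 5 genes nearest to Ryr2, Atp2a2 and Pln. The cardiomyocyte, endothelial, fibroblast, macrophage, mural, red cell, neutrophil and atrial marker lists were written by hand. Sln is in the atrial and the SERCA lists and Tcap in the cardiomyocyte and the junctional lists. Mural markers summed to 613 to 846 CPM, macrophage markers to 259 to 561 CPM and red cell markers to 1025 to 2567 CPM. The planned range of barcodes with at least 20% cardiomyocyte markers held at most 1 barcode of a library and was joined to that from 10%. Ranges of Malat1, its place in the base, and ranges of gene span and of exon length were added after the data had been seen. The authors' cell clusters, and the protein and metabolite measurements, were not used here.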

Additional observations from a re-analysis of the deposited data

Results flagged for a closer look

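For 6 of the 10 genes the log2 ratio of I/R over sham lay on opposite sides of 0 in young and aged mice, each with a counting interval that did not hold 0, and the difference between the ages was not tested because each condition had 1 library. The median of all genes also lay on opposite sides of 0, at −0.44 in young and 0.09 in aged mice. The share of all genes on opposite sides was not counted, so the 6 are not set against it. The difference, aged minus young, was 1.97 for Ryr2 (95% counting interval 1.95 to 1.99), −0.70 for Atp2a2 (−0.72 to −0.69), 0.46 for Trdn (0.41 to 0.50), 0.71 for Slc8a1 (0.66 to 0.76), 0.93 for Camk2d (0.87 to 0.99) and 0.17 for Hrc (0.14 to 0.21). With gene-wise scaling Ryr2 (−0.35 in young and 1.10 in aged mice) and Atp2a2 (0.63 and −0.59) were still on opposite sides of 0. Camk2d was at −0.40 and 0.0026, and Trdn (0.35 and 0.28), Slc8a1 (0.0085 and 0.19) and Hrc (0.39 and 0.033) had 1 sign in both ages. Casq2 (0.40 and −0.52) and Jph2 (0.32 and −0.51), which were lower in both ages by CPM, lay on opposite sides of 0 with this scaling. Without Gm42418, AY036118, Malat1 and mitochondrial genes in the base, Trdn (0.080 and 0.28) and Hrc (0.12 and 0.036) had 1 sign. Ryr2, Atp2a2, Slc8a1, Camk2d, Casq2 and Jph2 lay on opposite sides of 0 there. Of the 6 genes, only Hrc had 1 sign in barcodes with at least 200 genes (0.076 and 0.13). Only Camk2d did among barcodes with 2 to 10% Malat1 (−0.52 and −0.021). Library, animal and condition cannot be told apart in these differences.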

How the results depend on the processing

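No paired analysis was possible because each condition had 1 library. Leaving out the top 1% of barcodes or the barcodes found in another library moved no log2 ratio of a member by more than 0.028 and changed no sign. In barcodes with at least 200 genes a member moved by up to 0.26. Ratios of 2 members also depended on the choice of barcodes. Of 36 changes between libraries, 17 were counted as moved in barcodes with at least 200 genes and 6 without the top 1%. All 36 stayed the same without barcodes found in another library. The medians over the members, which were −0.27 in young I/R over young sham, −0.015 in aged I/R over aged sham, −0.046 in aged over young sham and 0.39 in aged over young I/R, became 0.16, −0.11, 0.10 and 0.011 with gene-wise scaling, and −0.11, −0.10, 0.023 and 0.21 on UMIs without Gm42418, AY036118, Malat1 and mitochondrial genes. Scaling by the cardiomyocyte markers gave −0.34 for young I/R over young sham, −0.21 for aged over young sham and 0.30 for aged over young I/R, and barcodes with at least 200 genes gave −0.35 for the first and −0.0071 for the second of these. In young I/R over young sham the members past 1.5-fold were 1 higher and 1 lower with gene-wise scaling, and a fold of 2 left 1 lower. There 3 (not 4) were lower without those RNAs (Pln at −0.44) and in barcodes with at least 200 genes (Pln at −0.56). In aged I/R over aged sham 1 was lower with gene-wise scaling and without those RNAs. In aged over young sham 2 were lower (not 1) in barcodes with at least 200 genes. That choice kept 26140 of the 92200 barcodes of young sham but 89990 of the 91124 of aged I/R, so it did not act alike on the libraries. In aged over young I/R 0 were higher and 1 lower with gene-wise scaling, and 0 were higher at a fold of 2. The share of all genes past the fold was not counted under these other scalings, barcode sets or the fold of 2. The changed counts are therefore not a result about the members. Per UMI of Ttn and Myh6 in place of the 18 markers the medians were 0.27, −0.88, 0.55 and −0.42. Each scaling shifts all log2 ratios of a comparison by 1 amount, and the cause of the other moves was not tested. No member past 1.5-fold had the other sign under any of these scalings or choices of barcodes, but not every such member stayed past 1.5-fold.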

Other observations

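Among the other calcium handling lists, the voltage-gated calcium channel genes were past 1.5-fold lower for 6 of 8 in young I/R over young sham and for 1 of 8 in aged I/R over aged sham, with median log2 ratios of −0.96 and −0.07, where 41.9% and 7.43% of all genes tested were lower. Between the ages, 2 of the 8 were lower in aged than in young sham, and 5 were higher in aged than in young I/R (median 0.81), beside 16.9% and 39.3% of all genes. Cacna1c, Cacna1d, Cacnb2 and Cacna2d1 of this list span at least 200 kb. The first 3 were past 1.5-fold lower in young I/R over young sham, but Cacna2d1 was not (log2 ratio 0.12). Of the shorter genes, Cacna1g (65.8 kb, −1.99), Cacna1h (59.5 kb, −0.62) and Cacnb3 (13.7 kb, −0.89) were also past it, and Cacnb1 (−0.18) was not. Over all genes of that span the medians were −0.89 in young I/R over young sham and 0.83 in aged over young I/R. The part of gene length was not tested, and these counts were not repeated with gene-wise scaling. Of 9 mitochondrial calcium uptake and release genes, 3 were past 1.5-fold lower and 1 higher in young I/R over young sham, beside 41.9% and 5.35% of all genes, and Mcu, the pore of the mitochondrial uniporter, was at 17.9 CPM in young and 9.79 in aged sham, and 10.1 and 15.5 after I/R. Mcu is named after its values had been seen. No test could be run for any of these differences.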
